A study of Mus musculus with 4 samples.

Results

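This section describes a class of mucous gland barcodes from mouse gingiva that carried more UMIs of Ptprn2, Ptprt and Kcnma1 than of Spink4 and Wfdc12. Its members were selected on their own counts. A barcode was a member if it had at least 200 genes, at most 20% mitochondrial UMIs and at least 3000 UMIs. Muc5b had to hold at least 1% of its UMIs and more of them than Krt5 and Krt14 together, and Dcpp1, Dcpp2, Dcpp3 and Bpifa2 together less than 10%. Finally the summed UMIs of Ptprn2, Ptprt and Kcnma1 had to reach 1 and to be no fewer than those of Spink4 and Wfdc12. A UMI, or unique molecular identifier, counts 1 captured RNA molecule. By this rule 329 of 7134 barcodes with acceptable gene number and mitochondrial share were members, of 8295 deposited.

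The gingiva, the gum tissue around the upper teeth, was cut out, digested with collagenase and DNase and profiled as single cells in droplets. There were 4 groups with 1 library each: healthy gingiva, the control (113 members), gingiva under metformin treatment (57 members), diseased gingiva (50 members), and diseased gingiva under metformin treatment (109 members). Metformin is a glucose-lowering drug, and the study asked how it acts on the gingiva in the prevention of periodontal disease. The mouse strain, age and number per library, the way disease was brought about and the metformin dose are not given in the sources used here. With 1 library per group there was no spread between animals to compare with, so none of the differences was tested, and intervals show counting error alone.

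Mucous cells of minor salivary glands make gel-forming mucins such as Muc5b, glycosylate them in the Golgi and store them in granules that are released when muscarinic receptors raise cellular calcium. Ptprn2 is a receptor-type tyrosine phosphatase relative that sits in the membrane of secretory granules and is best known from neuroendocrine cells. Kcnma1 is the pore-forming subunit of the large-conductance calcium-activated potassium (BK) channel, which secretes potassium in salivary epithelium. Ptprt is a receptor-type tyrosine phosphatase, Adcy2 an adenylyl cyclase that makes cAMP, and Bpifb6 a member of the BPI-fold family. All of them but Bpifb6 are very long genes.

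Of the 923 mucous gland barcodes that passed the shared gates, 593 had more Spink4 and Wfdc12 than Ptprn2, Ptprt and Kcnma1 UMIs, and 1 had neither. Spink4 and Wfdc12 encode small secreted protease inhibitor family proteins, and these 593 barcodes are called the Spink4 class below. Members held a median of 20 Ptprn2, Ptprt and Kcnma1 UMIs, from 1 to 130, and a median of 3 Spink4 and Wfdc12 UMIs, from 0 to 71. The Spink4 class held medians of 11 and 73. There was no gap at the border: 143 mucous gland barcodes lay within 2-fold of it, 61 of them members. Just inside it, 10 members had equal sums with a median of 6.5 UMIs, and just outside, 14 barcodes of the Spink4 class had 1 Spink4 or Wfdc12 UMI more (medians 5.5 and 6.5). A further 22 barcodes met every criterion but depth, with at least 2000 but under 3000 UMIs, and 10 members had 3000 to 3500.

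Members were shallower than the Spink4 class, with a median of 8925 UMIs (3051 to 62696) against 23240. Library medians ran from 8178 in disease plus metformin to 9881 in disease. In all, members held 3993257 UMIs, from 627287 in disease to 1466971 in healthy gingiva. The median mitochondrial share was 7.54% in members and 3.44% in the Spink4 class. No barcode sequence of a member occurred in a second library, while 8 barcode sequences of the whole series did.

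The class took its largest share of barcodes in the healthy library. Members were 8.65% of kept barcodes there (exact Clopper-Pearson 95% interval 7.18 to 10.3), 2.30% with metformin (1.75 to 2.97), 2.95% in disease (2.20 to 3.88) and 6.58% in disease plus metformin (5.43 to 7.88). The healthy and disease plus metformin libraries were thus high, and the other two were low with overlapping intervals. Over the mucous gland barcodes alone, the shares were 51.1% (44.3 to 57.9), 27.5% (21.6 to 34.2), 27.9% (21.5 to 35.1) and 34.5% (29.3 to 40.0) in the same order. Only the healthy interval stood clear of the other 3 with that denominator.

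**Figure D1:**
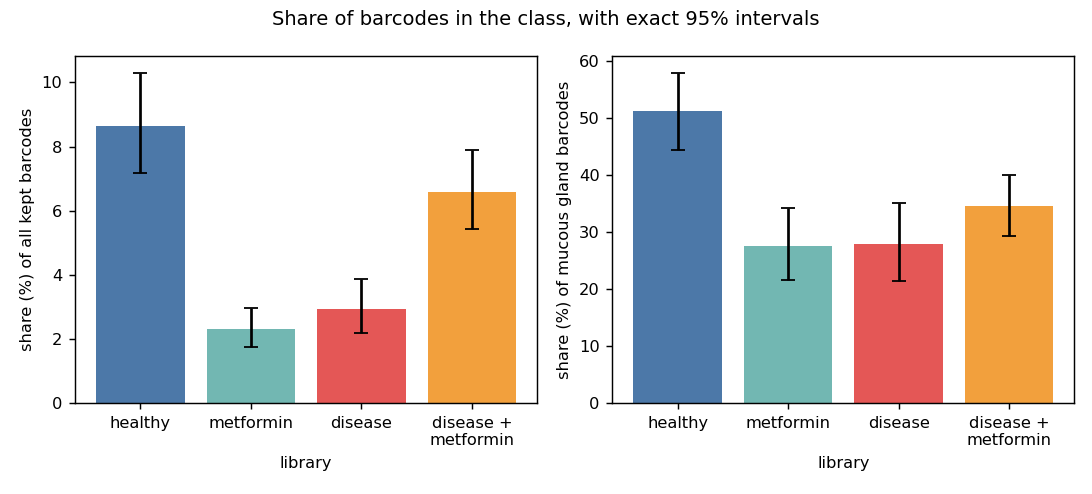
Share of barcodes in the class in each library, as a percentage of all kept barcodes (left) and of mucous gland barcodes (right), with exact Clopper-Pearson 95% intervals as error bars. Healthy gingiva was highest in both panels, at 8.65% and 51.1%, and disease plus metformin was near it only in the left one, at 6.58% of kept barcodes.

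As log2 ratios of the shares of kept barcodes, disease stood at -1.55 against healthy (conditional exact 95% interval -2.06 to -1.06) and metformin at -1.91 against healthy (-2.40 to -1.44). Disease plus metformin stood at 1.16 against disease (0.66 to 1.67) and at 1.52 against metformin (1.04 to 2.00). Over mucous gland barcodes the same 4 ratios were -0.87, -0.89, 0.30 and 0.33, and the last 2 intervals included 0 (-0.19 to 0.82 and -0.15 to 0.81). A mitochondrial limit of 10% in place of 20% lowered the share to 6.16%, 1.70%, 2.12% and 4.63% of kept barcodes. Each share also depends on how many gland barcodes a piece of tissue gave, which was not controlled, so gland sampling and group cannot be told apart.

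The 5 label genes were checked in every barcode after thinning to 3000 UMIs, which removes the difference in depth. At least 3 of the 5 had a UMI in 256 members (77.8%), in 154 of 593 Spink4-class barcodes (26.0%), in 3 of 93 barcodes rich in Dcpp and Bpifa2 (3.23%) and in 0 of 888 Krt5/Krt14 keratinocyte barcodes. None of the 5 had a UMI in 2.43% of members and in 97.7% of keratinocyte barcodes. Ptprn2, Ptprt and Kcnma1 were part of the rule, so these shares describe the choice and support nothing. Adcy2 and Bpifb6 were not counted by the rule, and after thinning each had a UMI in 56.5% of members. They were chosen as label genes with these data known, so their shares are a description too. Their levels in the Spink4 class are given below. Among keratinocyte barcodes, with a median depth of 5808.5 UMIs, Adcy2 was found in 0.225% and Bpifb6 in 0.450%. Unthinned, 85.1% of members had an Adcy2 UMI and 83.0% a Bpifb6 UMI.

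Ptprn2, on chr12:116485720-117276849 of mm10, reached 680 CPM in healthy members, 641 with metformin, 698 in disease and 842 in disease plus metformin, where CPM is UMIs per 1000000 UMIs of all members of a library. Kcnma1, on chr14:23289431-24014491, reached 717, 562, 575 and 1166 CPM in the same order. Disease plus metformin was the highest library. The log2 ratio was 1.02 against disease (0.85 to 1.19) and 1.05 against metformin (0.89 to 1.22). The second was 0.88, below 2-fold, when every member had equal weight. Kcnma1 in the Spink4 class was also highest in that library, at 314 CPM against 211, 196 and 196. The rule counted Ptprn2 and Kcnma1, so their levels in both classes depend on the choice of barcodes.

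Ptprt, on chr2:161521990-162661147, lay between 451 CPM in disease and 582 in healthy members. Adcy2, on chr13:68620043-68999541, lay between 258 CPM in disease and 380 in disease plus metformin. Bpifb6, on chr2:153900388-153912795, lay between 223 CPM in disease and 279 in healthy members. These genes thus differed by less than 2-fold over the 4 libraries.

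Over all libraries, Ptprn2 stood at 722 CPM in members and 196 CPM in the Spink4 class, a log2 ratio of 1.88 (1.81 to 1.96). The values for Ptprt were 540 and 147 CPM (1.88), for Kcnma1 796 and 239 CPM (1.74), for Adcy2 341 and 97.6 CPM (1.80) and for Bpifb6 261 and 96.5 CPM (1.43). Counted per barcode, the gap was smaller. A member held 8.77 Ptprn2 UMIs on average and a Spink4-class barcode 5.30, 9.66 against 6.47 for Kcnma1, and 3.17 against 2.62 for Bpifb6.

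The contrast with the Spink4 class followed gene length. Genes were grouped by genomic span, the distance from the first to the last base of the gene. Those of 300 to 1000 kb had a median log2 ratio of 1.46 in members over the Spink4 class, and 89.5% of 191 such genes were at least 2-fold higher. The median went down through 1.10 for 100 to 300 kb, 0.52 for 30 to 100 kb, -0.14 for 10 to 30 kb and -0.55 for 3 to 10 kb to -0.82 for the shortest 382 genes. Across 7308 genes with at least 200 UMIs, Spearman's rho of span and log2 ratio was 0.74, and 0.64 to 0.71 within single libraries. This is a description across genes, which are not independent and share both libraries and depth.

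**Figure D2:**
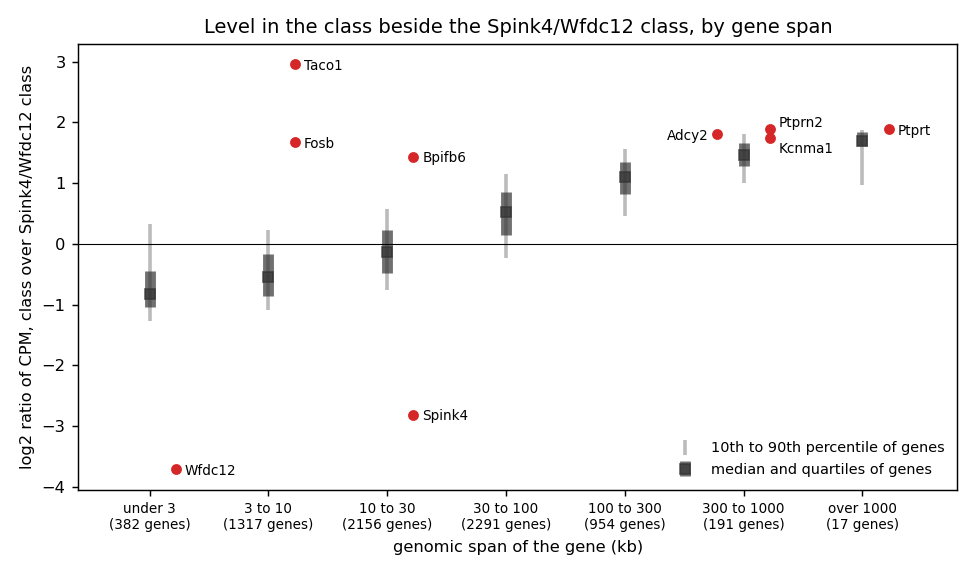
Log2 ratio of CPM in the class over the Spink4 class for genes grouped by genomic span (kb), as the median with quartiles (thick bars) and the 10th to 90th percentile (thin bars) of genes, with named genes as red points. Medians climb from -0.82 for genes under 3 kb to 1.69 for the 17 genes over 1000 kb. Taco1, Fosb and Bpifb6 lie far above, and Spink4 and Wfdc12 far below, genes of their own length. Spink4, Wfdc12, Ptprn2, Ptprt and Kcnma1 were counted by the rule, so their places describe the choice.

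Within their own length group, Ptprn2 stood at the 94.2th percentile of log2 ratios, Ptprt at the 94.1th, Adcy2 at the 90.1th and Kcnma1 at the 83.8th. The rule counted Ptprn2, Ptprt and Kcnma1, so their ranks describe the choice. Adcy2 and Bpifb6 were chosen as label genes with these data known, so their ranks are a description too. Bpifb6, with a span of 12.4 kb, stood at the 99.4th percentile of genes of 10 to 30 kb. It was the one label gene in a length group whose median lay below 0.

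UMIs from genes of at least 100 kb made up a median of 15.3% of a member (by library 14.9%, 15.3%, 12.7% and 15.9%) and 5.51% of a Spink4-class barcode. In absolute numbers the 2 classes were close: a member held 1638 such UMIs on average and a Spink4-class barcode 1556. The classes differed in UMIs of genes under 10 kb, with 4739 against 13606 per barcode. Between barcodes of like depth, 5000 to 15000 UMIs, the long-gene share was 15.9% in 208 members and 7.01% in 145 Spink4-class barcodes.

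**Figure D3:**
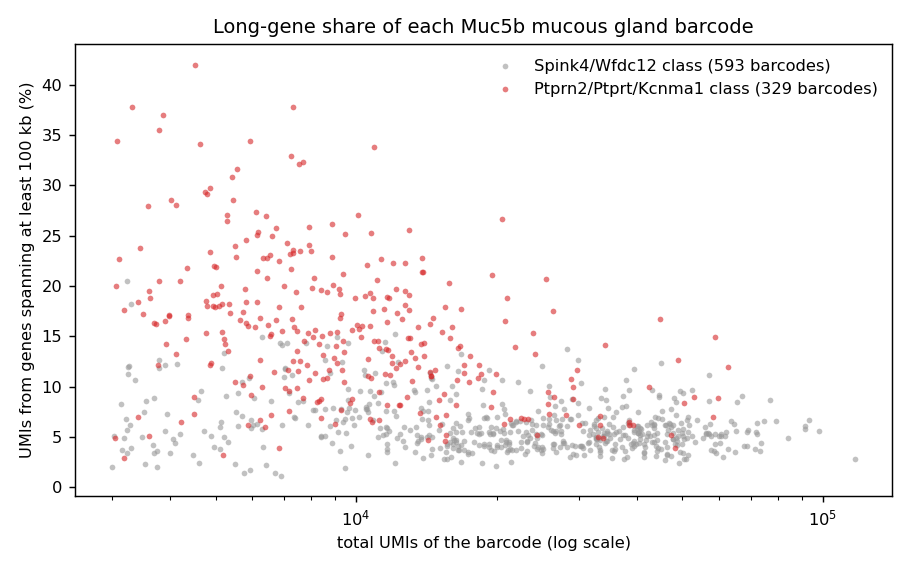
Each point is 1 mucous gland barcode, with its total UMIs on a log scale and the percentage of them from genes spanning at least 100 kb; members are red and Spink4-class barcodes grey. The median is 15.3% in members and 5.51% in the Spink4 class, and the 2 clouds overlap.

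RNAs that stay in the nucleus, and mitochondrial RNAs, were higher in the same contrast. Malat1, a nuclear long noncoding RNA, stood at 50057 CPM in members and 20498 in the Spink4 class, and Neat1, the scaffold RNA of paraspeckles, at 1345 and 396 CPM. Of 12 measured nuclear-retained and mitochondrial RNAs, 10 were at least 2-fold higher in members, with a median log2 ratio of 1.23 beside 0.25 over all genes. The predicted gene Gm42418, which was also put in this list, took 9.15% of all member UMIs and 2.55% of those of the Spink4 class. Whether Gm42418 counts stand for RNA kept in the nucleus was not tested. Its median share of a member was 7.90% in healthy, 4.43% in metformin, 12.0% in disease and 7.35% in disease plus metformin. Over the summed libraries, 18.9% of all 12173 measured genes were at least 2-fold higher in members and 5.89% lower, and the counts of gene lists beside the Spink4 class below use this criterion. The rule used this contrast, so they are a description. These counts were not matched for gene length. Of 954 genes of 100 to 300 kb with at least 200 UMIs, 59.1% were at least 2-fold higher. The values changed in steps with the balance of the rule genes. In the 54 members without a Spink4 or Wfdc12 UMI, the medians were 20.2% long-gene, 12.0% mitochondrial and 8.52% Malat1 UMIs. In the 61 members within 2-fold of the border they were 9.42%, 5.38% and 3.90%, and in the 82 Spink4-class barcodes within 2-fold of it 7.99%, 4.50% and 3.36%. The 247 Spink4-class barcodes at least 10-fold from it had 4.55%, 2.63% and 1.19%. The part of nuclear RNA or RNA loss in the class was not tested, and whether intronic reads were counted is not given in the sources used here.

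By a stricter criterion, 602 of the 12173 genes were at least 2-fold higher in members in every library (4.95%) and 70 lower (0.575%). With scaling by the median of ratios in place of total UMIs, the numbers were 248 and 288, and among barcodes of 5000 to 15000 UMIs 273 and 191. Since the rule used this contrast, the counts describe the choice. Of the 602 genes, 411 spanned over 100 kb (68.3%, against 13.6% of all measured genes), and 60 of the 70 spanned under 10 kb (85.7%).

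The highest ratio by the interval bound was that of Taco1, a translational activator of mitochondrial cytochrome c oxidase, at 98.9 CPM in members and 12.8 in the Spink4 class. Its log2 ratio of 2.95 (2.71 to 3.21) was at the 99.8th percentile of genes of its length. Camk1d, a calcium/calmodulin-dependent kinase, stood at 3824 and 776 CPM, and Cmss1 at 3454 and 726 CPM. Both ratios were far smaller at like depth, 1.19 for Camk1d and 1.25 for Cmss1 beside 2.30 and 2.25 over all barcodes. Among long genes were also Dpp6, an auxiliary subunit of voltage-gated potassium channels (134 and 26.3 CPM), and Hs6st3, a heparan sulfate sulfotransferase (69.6 and 11.6 CPM). On the low side, beside Wfdc12 and Spink4 themselves, came Wfdc18 at 143 and 824 CPM, and Sec61b, a subunit of the translocation pore of the endoplasmic reticulum, at 620 and 1825 CPM.

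Of 57 listed genes of regulated secretion and dense-core granules, 17 had no UMI in any member, among them Ptprn, the closest relative of Ptprn2, and the granins Chga, Chgb, Scg2 and Scg3. Without Ptprn2, which the rule used, 10 of 30 measured were at least 2-fold higher in members than in the Spink4 class and 1 lower, with a median of 0.49. The higher ones included Cadps2, a priming factor for granule release (518 and 171 CPM), and Unc13b, a vesicle priming protein (84.9 and 30.9 CPM). All of the 10 span over 75 kb.

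Of 48 measured genes of cAMP, receptor and calcium signalling, 18 were at least 2-fold higher in members and 0 lower (median 0.72), beside 18.9% and 5.89% of all genes. Chrm3, the muscarinic receptor that drives salivary secretion, stood at 1064, 1140, 795 and 1206 CPM in healthy, metformin, disease and disease plus metformin members. Pde4d, which degrades cAMP, stood at 8772, 6578, 5178 and 7594 CPM. Of receptor-type tyrosine phosphatases other than Ptprn2 and Ptprt, 6 of 11 measured were at least 2-fold higher than in the Spink4 class and 0 lower (median 1.06), among them Ptprk (410 and 144 CPM) and Ptprj (191 and 70.1 CPM). The part of gene length in the signalling and phosphatase lists was not tested.

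For ion transport, 3 of 23 measured genes other than Kcnma1 were at least 2-fold higher in members and 1 lower, with a median of 0.05, below that of all genes. Lrrc26, the BK channel subunit that lets Kcnma1 open at resting voltage, reached 320, 230, 255 and 352 CPM, below the Spink4 class at 630, 517, 458 and 747 CPM. Lrrc26 spans 1.27 kb. Slc12a2, the chloride importer of secretory cells, reached 446, 488, 426 and 564 CPM, and the water channel Aqp5 785, 988, 733 and 995 CPM. Cftr had no UMI in members.

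Among transcription factors of glands, 13 of 34 measured were at least 2-fold higher in members than in the Spink4 class and 0 lower (median 0.70), beside 18.9% of all genes. The part of gene length in this list was not tested. Esrrg, an orphan nuclear receptor of oxidative metabolism, stood at 151 and 40.8 CPM, and Nfib, a nuclear factor I protein, at 788 and 369 CPM. Nkx2-3, a homeobox factor of minor salivary gland development, stood at 25 and 9.71 CPM. Its log2 ratio of 1.37 (0.99 to 1.74) was at the 99.2th percentile of genes of its length, with a span of 3.57 kb. Of 48 measured O-glycosylation genes, 7 were higher and 0 lower, a share near that of all genes (median 0.28, beside 0.25 over all genes), among them the sulfotransferase Chst9 at 244 and 65.5 CPM.

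Mucous cargo was present throughout. Muc5b, the gel-forming mucin used by the rule, took a median of 8.17% of a member's UMIs (1.05 to 19.0) and 7.18% of those of a Spink4-class barcode. Tff2, a trefoil peptide secreted with mucins, took a median of 2.56% (0.0136 to 15.8) against 9.52%. By library its member median was 3.35% in healthy, 0.942% with metformin, 2.50% in disease and 3.06% in disease plus metformin, so that the metformin library was low. Of 14 measured mucous cargo genes that the rule did not use, 4 were at least 2-fold lower in members and 1 higher (median -0.43). Agr2, a disulfide isomerase needed for mucin folding, stood at 7402 and 13585 CPM. Muc19, a gel-forming mucin that spans 96.2 kb, stood at 4464 and 3382 CPM.

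Marker lists of other cell types differed widely in their summed level. Of 18 markers of taste, tuft and endocrine cells, 12 including Trpm5, Chga and Chgb had no UMI in members, and the list summed to 6.13 to 10.4 CPM per library. Leukocyte markers summed to 1.36 to 17.3 CPM with 11 of 20 at 0, among them Cd3e and Csf1r. Fibroblast markers summed to 6.38 to 41.7 CPM with Col1a2, Col3a1 and Pdgfra among 6 of 10 at 0. Skeletal muscle markers stayed between 1.34 and 7.97 CPM with Acta1 and Ckm among 6 of 10 at 0. Endothelial markers summed to 57.4 to 92.0 CPM, nearly all Vwf, with Cldn5 among 4 of 11 at 0. Schwann cell markers summed to 102 to 126 CPM with 1 of 9 at 0. Duct cell markers summed to 4495, 6126, 5694 and 6801 CPM in healthy, metformin, disease and disease plus metformin members, below the Spink4 class in each library, with Ascl3, Foxi1 and Cftr among 5 of 20 at 0. Most of that sum was Wfdc2, at 4208 CPM over all members.

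Keratinocyte RNA differed by library. The 28 markers, of which Sprr1a and Sprr3 were at 0, summed to 2035 CPM in healthy members, 3976 with metformin, 540 in disease and 338 in disease plus metformin. A single barcode held 76.1% of the healthy sum and 37.0% of the metformin sum. The 11 myoepithelial markers summed to 142, 729, 105 and 78.8 CPM, with 90.6% of the metformin sum in 1 barcode. Serous cargo, with 10 of 26 genes at 0, summed to 1827, 3987, 2144 and 1671 CPM. Krt5 and Krt14 exceeded 0.5% of UMIs in 5 members, all with metformin, and the Dcpp and Bpifa2 genes exceeded 1% in 12 members, 7 of them with metformin. Members over either limit are called those carrying keratin or Dcpp RNA below. Of the healthy members, 0 exceeded the keratin limit and 2 the other. The limit counted Krt5 and Krt14 alone. The healthy barcode with 76.1% of the keratinocyte sum was thus under the keratin limit despite its other keratinocyte RNA. Members under both limits stay in when the others are left out, although 88 members had a Krt14 UMI.

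Between libraries, members were compared with members. The Spink4 class of the same libraries is given beside part of the genes and the immediate-early list. Where it is not given, the classes need not be alike. The rule did not use the contrasts between libraries. It did count its own genes in every library, so the levels of these genes in members depend on the choice. A gene counted as measured with at least 20 UMIs over the pair, and the genes ranked in each comparison are those of which no barcode held over 20% of these UMIs.

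In disease against healthy gingiva, members had more RNA of the potassium channel Kcnk2 and less of Thbs1 and Nupr1. Of 7792 measured genes, 305 were at least 2-fold higher (3.91%) and 343 lower (4.4%), with a median of 0.07. Kcnk2, on chr1:189207930-189402273, encodes a mechanically gated background potassium channel. It stood at 18.4 CPM in healthy, 35.0 with metformin, 169 in disease and 20.8 in disease plus metformin members. Disease stood apart, with a log2 ratio of 3.20 over healthy (2.58 to 3.87). After thinning, 44.0% of disease members had a Kcnk2 UMI against 3.54%, 14% and 4.59% of healthy, metformin and disease plus metformin members, and 1.24% of keratinocyte barcodes. In the Spink4 class the levels were 29.3, 26.3, 106 and 19.8 CPM, again highest in disease.

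Thbs1, on chr2:118111876-118127133, encodes the secreted matrix protein thrombospondin and is itself an early response gene. It stood at 102, 104, 7.97 and 151 CPM in healthy, metformin, disease and disease plus metformin members. Disease was 12.7-fold lower than healthy (log2 ratio -3.67, -5.32 to -2.42), with 5 UMIs in 4 members. The Spink4 class had 64.0, 51.4, 15.0 and 67.8 CPM, low in the same library.

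Nupr1, on chr7:126623249-126630861, encodes a small stress-response chromatin protein. It stood at 16062 CPM in healthy members, 9125 with metformin, 3914 in disease and 6911 in disease plus metformin. The log2 ratio of disease to healthy was -2.04 (-2.10 to -1.98). Levels in the Spink4 class were 19209, 12570, 8030 and 11132 CPM in the same order of libraries, so that all 3 other libraries lay below healthy gingiva in both classes.

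Ldhb, on chr6:142490249-142507957, encodes the lactate dehydrogenase subunit that favours lactate use. It stood at 96.1 CPM in healthy members against 8.07, 15.9 and 21.6 CPM with metformin, in disease and in disease plus metformin. The log2 ratio to healthy was -3.57 with metformin (-5.05 to -2.42) and -2.59 in disease (-3.68 to -1.67). Healthy gingiva stood apart in the Spink4 class as well, at 123 CPM against 5.69, 13.1 and 54.8.

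Others named by the ranking in disease were Sdk2, a cell adhesion protein, at 70.1 CPM against 4.77 in healthy members, and Ceacam10, a secreted carcinoembryonic antigen relative, at 126 against 40.2 CPM. Lower were Nfkbia, the inhibitor of NF-kappa B, at 23.9 against 129 CPM, and Adh1, an alcohol dehydrogenase, at 3.19 against 45.7 CPM. Of 41 measured genes of protein folding in the endoplasmic reticulum, 4 reached 2-fold above healthy gingiva in disease and 0 were 2-fold below it (median 0.23, against 0.07 over all genes). They included the chaperone Hspa5 at 508 CPM in healthy, 1112 with metformin, 1081 in disease and 891 in disease plus metformin members, and the folding factor Manf at 346, 731, 709 and 540 CPM. Healthy gingiva was the lowest library for both. Of 10 measured interferon and class I genes, 1 was higher and 2 lower (median -0.26).

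**Figure D4:**
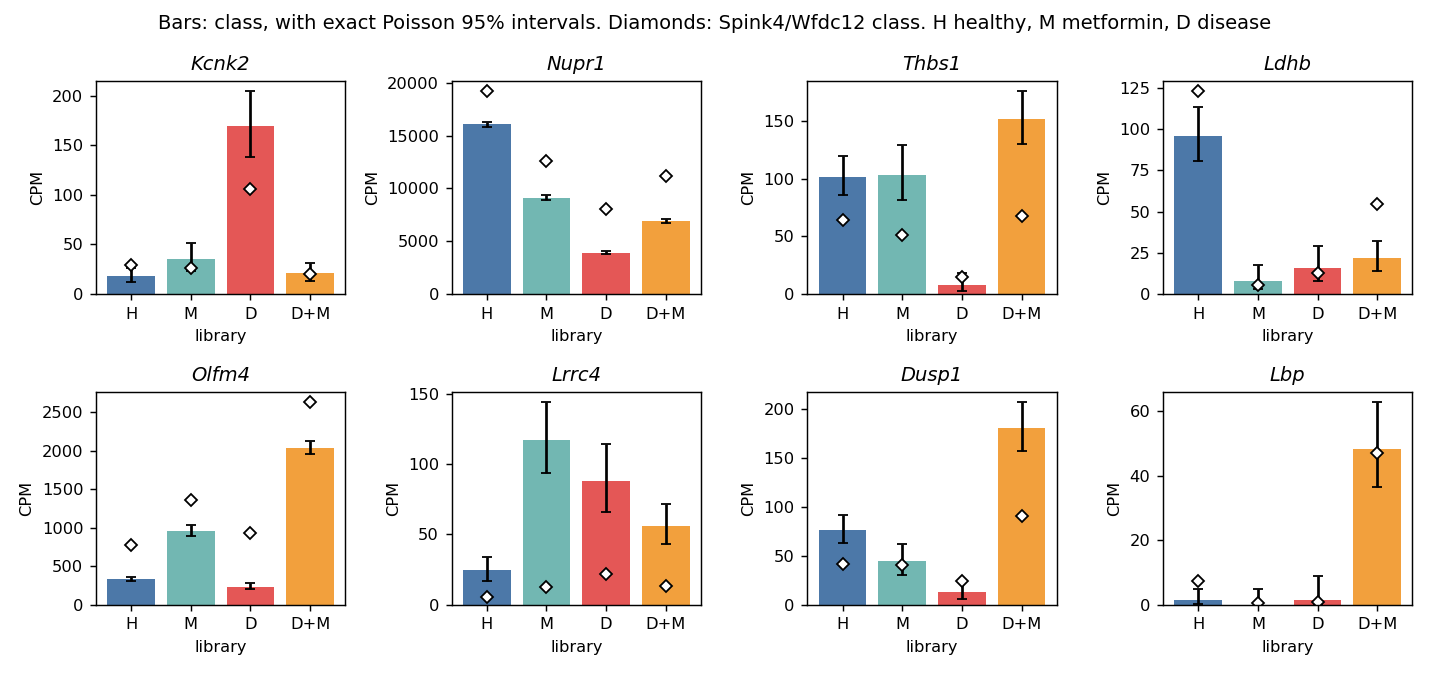
CPM of 8 genes in members by library (bars, linear axes from 0, with exact Poisson 95% intervals) and in the Spink4 class (diamonds, without intervals). Kcnk2 is high in disease alone, Thbs1 is low there, Nupr1 and Ldhb are highest in healthy gingiva, and Olfm4, Dusp1 and Lbp are highest in disease plus metformin.

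In metformin against healthy gingiva, members had more RNA of Lrrc4 and Olfm4 and less of Ldhb and Tff2. Of 8038 measured genes, 404 were at least 2-fold higher (5.03%) and 229 lower (2.85%). The median gene stood at 0.15, and with scaling by the median of ratios the numbers were 299 and 317. Lrrc4, a synaptic adhesion protein of the leucine-rich repeat family, stood at 24.5 CPM in healthy, 117 with metformin, 87.7 in disease and 56.3 in disease plus metformin members (log2 ratio 2.25, 1.68 to 2.86, for metformin over healthy). The Spink4 class was at 5.30, 12.9, 21.6 and 13.0 CPM. St6galnac2, a sialyltransferase of mucin-type O-glycans, stood at 25.2, 92.8, 67.0 and 162 CPM, lowest in healthy members, and Fgfr2, a receptor for fibroblast growth factors, at 116, 305, 115 and 267 CPM, high in both metformin libraries.

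Tff2 stood at 57090 CPM in healthy members, 23818 with metformin, 44868 in disease and 46342 in disease plus metformin. The log2 ratio of metformin to healthy was -1.26 (-1.28 to -1.24). In the Spink4 class it stood at 111861, 77840, 100534 and 118920 CPM, lowest with metformin as well. Smgc, a salivary gland protein whose gene overlaps Muc19 so that reads of the pair may be split between them, stood at 3693, 1822, 1318 and 3226 CPM, with a ratio of -1.02 that became -0.92 without the members carrying keratin or Dcpp RNA. Xylt1, which starts glycosaminoglycan chains, was low with metformin alone, at 12.1 CPM against 59.3, 84.5 and 48.5.

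Keratinocyte, myoepithelial and serous RNA was higher with metformin. Of 19 measured keratinocyte markers 12 were at least 2-fold higher with metformin and 2 lower (median 1.68, or 0.98 without the members carrying keratin or Dcpp RNA). Of 8 measured myoepithelial markers 7 were higher (median 2.33), and of 8 measured serous genes 4 were higher and 1 lower (median 1.27, or 0.31 without those members). Among gland lists, 3 of 41 genes of endoplasmic reticulum folding were higher and 0 lower (median 0.33), and 4 of 26 genes of AMPK, mTORC1 and lipid synthesis were higher and 0 lower (median 0.34), against 0.15 over all genes. Without the members carrying keratin or Dcpp RNA these medians were 0.34 and 0.33. For keratin this exclusion took members from the metformin library alone. AMPK is the energy sensor that metformin is known to activate. The same AMPK list had a median of 0.28 in disease against healthy gingiva, beside 0.07 over all genes. In disease plus metformin against disease its median was -0.04, with 0 of 26 genes higher and 1 lower, beside 0.01 over all genes. A link of this list to metformin was not tested.

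In disease plus metformin against disease, members had more RNA of Olfm4, Thbs1 and the immediate-early genes and less of Kcnk2. Of 7458 measured genes, 490 were at least 2-fold higher (6.57%) and 235 lower (3.15%), with a median of 0.01. Olfm4, on chr14:79984081-80023139, encodes a secreted glycoprotein of the olfactomedin family. It stood at 331 CPM in healthy, 956 with metformin, 236 in disease and 2036 in disease plus metformin members. Both metformin libraries were thus high. The ratio was 8.63-fold against disease (log2 3.11, 2.87 to 3.36) and 1.53 on the log2 scale for metformin against healthy (1.36 to 1.70). After thinning, 79.8% of disease plus metformin members had an Olfm4 UMI against 30.0% in disease, and 5.52% of keratinocyte barcodes did. The Spink4 class had 778, 1364, 937 and 2630 CPM.

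Lbp, on chr2:158306493-158332852, encodes the lipopolysaccharide-binding protein. It had 2 UMIs in healthy, 0 in metformin, 1 in disease and 56 in disease plus metformin members, the last spread over 31 barcodes (48.5 CPM). Against metformin it was at least 12.0-fold higher, with the 0 set to 3 UMIs. Against disease the log2 ratio was 4.93 with a counting interval of 2.39 to 10.26. The Spink4 class had 7.34, 0.588, 0.980 and 47.1 CPM, high in the same library, and no keratinocyte barcode had an Lbp UMI. Kcnk2 was at -3.02 (-3.73 to -2.37) in this comparison. Thbs1 was at 4.25 (3.00 to 5.89).

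The immediate-early list holds genes transcribed within minutes of a stimulus, and tissue digestion is known to be one such stimulus. Of 17 measured, 13 were at least 2-fold higher in disease plus metformin than in disease and 0 lower, with a median of 1.65 against 0.01 over all genes. In the Spink4 class 11 of 19 were, with a median of 1.04. The list summed to 3911 CPM in healthy members, 5060 with metformin, 3164 in disease and 8163 in disease plus metformin. Per barcode thinned to 3000 UMIs, the medians were 11, 16, 9 and 26 UMIs in members and 5, 6, 5 and 9 in the Spink4 class. The disease plus metformin library was thus highest and disease lowest or joint lowest in both classes. The time from dissection to capture is not given in the sources used here, and its part was not tested.

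Among the members of the list, Fos, a subunit of the AP-1 factor, stood at 663, 878, 515 and 1324 CPM in healthy, metformin, disease and disease plus metformin members. Atf3, a stress-induced bZIP factor, stood at 316, 409, 203 and 932 CPM. Nr4a1, an orphan nuclear receptor, stood at 90, 163, 41.4 and 240 CPM. Its log2 ratio of disease plus metformin over disease was 2.53 (1.95 to 3.17), and 44.0% against 10.0% of thinned members had a UMI. Klf6 stood at 75.7, 183, 52.6 and 250 CPM, so the metformin library was second in each of these genes.

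**Figure D5:**
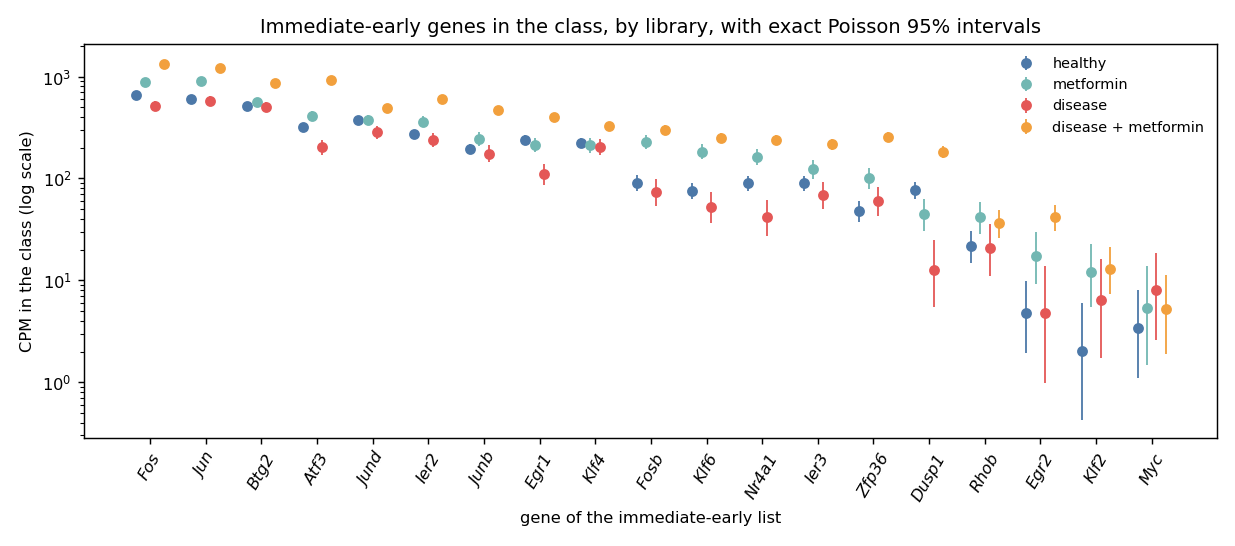
CPM of the 19 immediate-early genes in members on a log axis, by library, with exact Poisson 95% intervals. Disease plus metformin is highest for Fos, Atf3, Nr4a1, Klf6 and most others (8163 CPM summed), and disease is lowest for most (3164 CPM summed).

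A cAMP response element in its full palindromic form, TGACGTCA, was looked for in the 250 bases before the start of these genes, since CREB binding to it is a known route to immediate-early transcription. RefSeq promoter windows (GRCm38.p6) were found for 16 of the 20 listed genes, and 2 held the motif, against 1.77% of 27025 genes. The motif reads alike on both strands. The windows of those genes are shown 5′ to 3′ on the gene's strand with the motif in capitals. That of Btg2 is chr1:134079156-134079405, minus strand, and that of Dusp1 is chr17:26508473-26508722, minus strand.
Btg2: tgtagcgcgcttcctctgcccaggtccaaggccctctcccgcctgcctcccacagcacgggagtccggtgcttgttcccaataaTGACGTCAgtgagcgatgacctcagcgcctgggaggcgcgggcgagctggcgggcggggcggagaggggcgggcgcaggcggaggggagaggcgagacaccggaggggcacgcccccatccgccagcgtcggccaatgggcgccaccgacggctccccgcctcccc
Dusp1: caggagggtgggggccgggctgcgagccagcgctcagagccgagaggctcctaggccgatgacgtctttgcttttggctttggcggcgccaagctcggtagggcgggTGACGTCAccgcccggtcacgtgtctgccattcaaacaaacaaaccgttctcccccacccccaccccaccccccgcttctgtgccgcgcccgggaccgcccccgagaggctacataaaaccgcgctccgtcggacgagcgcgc
The motif begins 166 bases before the start of Btg2 and 143 bases before that of Dusp1. The genes themselves differed in size of response. Dusp1, a phosphatase that shuts off MAP kinases, stood at 76.3, 44.4, 12.8 and 181 CPM in healthy, metformin, disease and disease plus metformin members, a log2 ratio of 3.83 (2.82 to 5.06) between the last 2. Btg2, an antiproliferative transcription cofactor, stood at 518, 558, 504 and 867 CPM, a log2 ratio of 0.78 (0.60 to 0.97), short of 2-fold.

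Of 44 measured O-glycosylation genes, 9 were at least 2-fold higher with metformin in disease and 1 lower (median 0.04). Of all measured genes in this comparison, 6.57% were higher and 3.15% lower (median 0.01). St6galnac2 was among the higher O-glycosylation genes with a log2 ratio of 1.27 (0.78 to 1.79). Of 9 measured interferon and class I genes 2 were higher and 0 lower (median 0.58), one being the transcription factor Irf1 at 14.4 CPM in disease and 133 CPM in disease plus metformin members. Of 41 genes of endoplasmic reticulum folding 0 were 2-fold higher or lower (median -0.21). Ceacam10 went the other way, at 48.5 CPM against 126 in disease.

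In disease plus metformin against metformin alone, members had more RNA of Lbp, Socs3 and Dusp1 and less of Sec61b and Dnajb9. Of 7712 measured genes, 339 were at least 2-fold higher (4.4%) and 407 lower (5.28%), with a median of -0.05. Socs3, a feedback inhibitor of cytokine signalling through STAT3, stood at 13.6 CPM in healthy, 20.2 with metformin, 11.2 in disease and 112 in disease plus metformin members. The log2 ratio to metformin was 2.47 (1.69 to 3.35). The Spink4 class had 14.7, 23.7, 8.49 and 44.0 CPM, high in the same library. Dnajb9, a co-chaperone of the endoplasmic reticulum, stood at 53.9, 138, 82.9 and 60.6 CPM, highest with metformin.

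Of 18 measured immediate-early genes, 4 were at least 2-fold higher in disease plus metformin than in metformin and 0 lower (median 0.63). Of 41 genes of endoplasmic reticulum folding, 0 were higher and 3 lower (median -0.14). Keratinocyte markers were lower for 14 of 15 measured (median -4.32, or -3.21 without the members carrying keratin or Dcpp RNA). The 4 comparisons share libraries in pairs, so their values are not independent of each other.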

How the data were processed

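Libraries were made with the 10x Genomics droplet method, per the labels. The authors used bcl2fastq and Cell Ranger 7.0.1 with build mm10, per the submitters' processing notes. The deposited values are raw counts of UMIs per gene and barcode. Python 3.11.15, numpy 2.4.6, pandas 2.3.3 and SciPy 1.17.1 were used here. No doublet caller was applied, so doublets may remain. UMIs of members were summed per library and given as CPM, with exact Poisson intervals for levels, conditional exact binomial intervals for ratios and Clopper-Pearson intervals for shares, all at 95% and treating UMIs as independent. A count of 0 was set to 3 UMIs for a fold. Shares of barcodes with a UMI were taken after thinning to 3000 UMIs. Gene spans and positions come from the GENCODE M21 annotation of GRCm38, the assembly of mm10.

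The members and the gene lists were chosen with earlier results of these data known. Named genes were the 6 highest and 6 lowest of each library comparison (12 beside the Spink4 class) by the interval bound nearest 0, with at least 50 UMIs and a level in members no lower than in all kept barcodes, and up to 4 genes of each list. Further genes that illustrate a list were chosen after their values were seen. The counting intervals were tried on simulated Poisson counts with known fold changes. The simulation held no spread between barcodes, animals or libraries, so it cannot speak to that spread. Alternatives covered the gates, weighting, scaling, minimum counts and single libraries.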

Additional observations from a re-analysis of the deposited data

Results flagged for a closer look

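In members, 3 named genes were at least 2-fold higher in one and 2-fold lower in the other of the metformin comparisons of healthy and of diseased gingiva, and 2 gene lists had medians of opposite sign that were both at least 0.5 from 0 on the log2 scale. Genes and lists with smaller opposite differences are not given here. With 1 library per group the difference was not tested. Ceacam10 was higher with metformin in healthy gingiva (log2 ratio 1.05) and lower in disease (-1.38), a difference of -2.43. Smgc was lower in healthy gingiva (-1.02) and higher in disease (1.29), a difference of 2.31. Elmo1, which helps cells engulf and move, was lower in healthy gingiva (-1.48) and higher in disease (1.33), a difference of 2.81, on 8 UMIs in the metformin library and 14 in disease. The serous cargo list had a median of 1.27 and of -0.85 (difference -2.12), and the myoepithelial list one of 2.33 and of -0.59 (difference -2.92). In the metformin library 90.6% of the myoepithelial UMIs of members lay in 1 barcode, and without the members carrying keratin or Dcpp RNA the serous median there was 0.31.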

How the results depend on the processing

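No paired analysis was possible because each group is 1 library, so that the groups share a single replicate number. With at least 5000 UMIs the healthy share was 6.96%. With mitochondrial UMIs of at most 10% the shares were 6.16%, 1.70%, 2.12% and 4.63% (healthy, metformin, disease, disease plus metformin). Over mucous gland barcodes they were 51.1%, 27.5%, 27.9% and 34.5%, with log2 ratios of -0.87 (disease over healthy), -0.89 (metformin over healthy), 0.30 (disease plus metformin over disease) and 0.33 (over metformin). With a minimum of 1 UMI, the genes at least 2-fold higher and lower numbered 910 and 853, 1066 and 763, 1129 and 848, and 834 and 1168 in these 4 comparisons. With 50 UMIs they were 83 and 103, 140 and 48, 217 and 53, and 128 and 155. The larger numbers hold more genes of low count, by construction. With equal weight per member, metformin over healthy gave 608 and 394. Beside the Spink4 class (602 and 70), the numbers were 951 and 109 without the disease library, 185 lower without the metformin library, 353 lower with equal weight per barcode, 248 and 288 with scaling by the median of ratios, and 273 and 191 for barcodes of 5000 to 15000 UMIs; the cause was not tested. The myoepithelial median reversed in members with at least 2 times as many Ptprn2, Ptprt and Kcnma1 as Spink4 and Wfdc12 UMIs: 1.35 (disease over healthy), 0.0090 (disease plus metformin over disease) and 1.20 (over metformin). Of 612 values of named genes between libraries under alternatives, 583 moved no further than the distance from the middle to an end of their counting interval. None of the 612 reversed. Beside the Spink4 class, 139 of 232 values of named genes stayed within that distance, 93 moved further and 0 reversed. The 5000 to 15000 UMI band and the exclusion of members with keratin or Dcpp RNA were chosen after seeing the data. Depth limits genes such as Lbp, where 3 UMIs in metformin members equal 4.03 CPM.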
